A study of Mus musculus with 13 samples.

Results

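The cytosolic ribosomal protein genes were followed in aortic endothelial cells (ECs) and in the heart, comparing Hmox2-/- mice with their Hmox2+/+ littermates. A gene was included when it was annotated as protein-coding and its symbol was Rpl or Rps followed by a digit, or was Rplp0, Rplp1, Rplp2 or Rpsa, with the Rps6k kinases left out. This rule took 93 of the 36109 genes listed. They comprised 31 genes of the small (40S) subunit, 43 of the large (60S) subunit, 3 of the stalk of the large subunit, 8 paralogs of such genes and 6 protein-coding copies whose symbols end in rt or in -ps with a number. The remaining 2, Rps19bp1 and Rps23rg1, match the symbol rule but do not encode a ribosomal protein. Of the 93 genes, 89 passed the filter on low counts in ECs and 87 in heart tissue. Rpl10l, Rps4l, Rpl39l and Rps18-ps6 passed in neither tissue, and Rpl9-ps6 and Rpl27rt passed in ECs alone.

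Each cytosolic ribosome is built from ribosomal RNA and a single copy of most of these proteins, so cells keep the output of the genes in balance. Their mRNAs are short, abundant and translated as a group: many begin with a C followed by a run of pyrimidines, the terminal oligopyrimidine (TOP) motif, through which growth signals control their translation. The same mRNAs have been copied back into the genome many times, and such retrocopies, mostly processed pseudogenes without introns, can be nearly identical to the parent mRNA, so that short reads may match both.

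RNA was measured in 13 libraries of mice kept in room air: ECs of 3 Hmox2+/+ mice (EC WT) and 3 Hmox2-/- mice (EC KO), and hearts of 4 Hmox2+/+ mice (heart WT) and 3 Hmox2-/- mice (heart KO). Hmox2-/- mice lack heme oxygenase 2, which degrades heme, throughout the body. By the study's account all the sequenced mice were young. EC RNA was collected by flushing the aortic lumen with lysis reagent, and heart RNA from the frozen whole organ, so the tissue and the RNA kit cannot be told apart. Total estimated counts were 26067147 to 31619776 per library, except for heart WT 1 with 7268626. Hmox2 itself (chr16:4544216-4589816, plus strand of GRCm39) was 76.2, 66.1 and 63.9 CPM (counts scaled to a common library size within a tissue by TMM) in EC WT and 12.6, 13.3 and 14.7 in EC KO, and 40.7, 42.5, 37.3 and 38.8 in heart WT and 8.9, 7.53 and 7.81 in heart KO, with no overlap in either tissue. All 8 endothelial markers were detected in every group, but EC libraries also held smooth muscle markers (summed level 593 to 3154 in TPM, which is scaled by transcript length and library size), adipocyte markers (3714 to 5611 TPM) and erythroid markers (3981 to 9628 TPM).

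Ribosomal protein genes took up a larger share of the transcripts in hearts of Hmox2-/- mice, and the EC groups overlapped. In heart WT they held 1.60%, 1.84%, 1.45% and 1.53% of all TPM, and in heart KO 4.08%, 3.20% and 2.75%. Every heart KO library lay above every heart WT library, with group means of 3.34% ± 0.677 (SD, n = 3) and 1.61% ± 0.168 (SD, n = 4). In ECs the shares were 4.85%, 6.06% and 6.95% in WT and 7.11%, 5.28% and 5.45% in KO. The EC groups overlapped, and their means were 5.95% ± 1.06 (SD, n = 3) and 5.95% ± 1.01 (SD, n = 3). Genes encoded in the mitochondrial genome moved with the heart result: they held 37.3% to 43.9% of the estimated counts in heart WT and 22.3% to 27.0% in heart KO. With those genes left out, the ribosomal protein genes held 4.19% to 4.34% of TPM in heart WT and 4.86% to 6.23% in heart KO, still without overlap, and 9.40% to 11.3% in EC WT and 10.6% to 12.2% in EC KO. In bulk RNA of this kind, fewer cells of a type and less RNA per cell cannot be told apart.

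**Figure D1:**
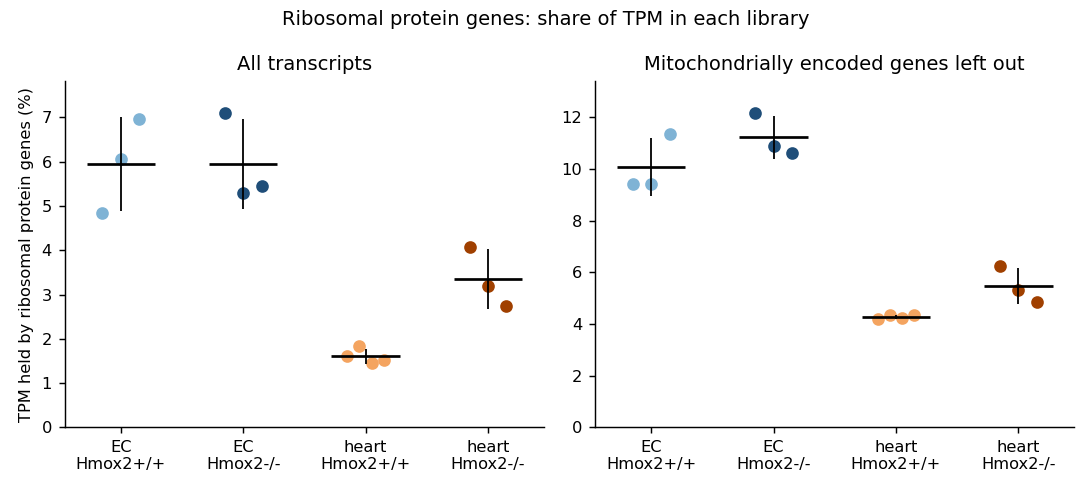
Share of TPM held by the 93 ribosomal protein genes in each library, as percent, with all transcripts (left) and without the mitochondrially encoded genes (right); points are libraries, horizontal bars group means and vertical bars the SD. The 3 heart KO libraries lie above the 4 heart WT libraries in both panels, and the EC groups overlap.

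In hearts of Hmox2-/- mice nearly every ribosomal protein gene was higher. In edgeR's quasi-likelihood test, with p adjusted by Benjamini-Hochberg over all genes and a limit of 0.05, 78 of the 87 genes tested were higher and 1 was lower. Among all 13816 genes tested 17.2% were higher and 16.2% lower, 33.4% in all. Their median log2 fold change was 0.64, and that of all genes tested -0.01. The subunits moved together: 30 of 31 genes of the 40S subunit were higher (median 0.68), 37 of 43 of the 60S subunit (median 0.61), all 3 stalk genes (median 0.64) and all 5 paralogs tested (median 0.59). In 75 genes every heart KO library lay above every heart WT library, and in 1 below, where 20.6% and 19.8% of all genes did. Most changes were small. The study's own rule, which adds a change of at least 1 on the log2 scale in either direction, left 8 genes higher and 1 lower, where 2.66% and 4.05% of all genes were. Rps19bp1, which encodes no ribosomal protein, is among the 8.

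Rpl11, a 60S protein that together with Rpl5 carries the 5S ribosomal RNA and restrains the p53 regulator Mdm2, had the largest rise of a gene that shares under 20% of its sequence with other genes (16.4% over all its transcripts, 40.4% in the most abundant). It lies at chr4:135753967-135780818 on the minus strand of GRCm39. Its levels were 58, 61.9, 58.8 and 58.4 CPM in heart WT and 277, 193 and 149 CPM in heart KO (1.80 ± 0.17 SE, adjusted p = 4.43e-05 on the log2 scale). The groups did not overlap, and the spread among the KO hearts exceeded that among the WT hearts. Rpl5, its partner, was 11.5, 9.8, 11.2 and 11.6 CPM in heart WT and 11.2, 9.44 and 6.55 CPM in heart KO, with overlap and no call (-0.28 ± 0.17 SE, adjusted p = 0.234), but most counts of its sequence went to a copy, as given with the copies. Rps14, the 40S gene whose loss marks the 5q- syndrome, was 158, 178, 182 and 181 CPM in heart WT and 566, 339 and 204 CPM in heart KO (1.08 ± 0.25 SE, adjusted p = 0.0082). Its 3 KO values span a wide range, and the lowest stands just above the WT values. Rps21 of the 40S subunit was 43.3, 50.03, 41.9 and 45.7 CPM and 129.9, 92 and 66.3 CPM (1.08 ± 0.18 SE, adjusted p = 0.0018), without overlap. Rps2, near the mRNA entry of the 40S subunit, was 289, 324, 300.3 and 472 CPM and 1034, 749 and 456 CPM (1.11 ± 0.24 SE, adjusted p = 0.00638). Here heart WT 4 lay above heart KO 3, so the groups overlapped in spite of the call.

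Other genes with known roles rose less. Rps6, the target of the S6 kinases, was 185, 183, 150.5 and 174 CPM in heart WT and 249, 243 and 233 CPM in heart KO (0.48 ± 0.10 SE, adjusted p = 0.00455). Rps19, the gene most often mutated in Diamond-Blackfan anaemia, was 66.5, 71.7, 66.1 and 65.3 CPM and 139, 107 and 89.6 CPM (0.73 ± 0.13 SE, adjusted p = 0.00269). Rpsa, which is also known as a laminin receptor, was 329.8, 354, 334 and 324 CPM and 715, 528 and 436 CPM (0.74 ± 0.14 SE, adjusted p = 0.00383). None of the 3 had overlapping groups. The stalk genes, which recruit the elongation factors, rose to a like extent: Rplp0 by 0.62, Rplp1 by 0.67 and Rplp2 by 0.64 on the log2 scale (adjusted p = 0.00735, 0.00598 and 0.00802). Rpl4, a 60S protein at the exit tunnel, rose by 0.30 (adjusted p = 0.0288). The genes that were not called in heart tissue were Rpl10a (0.36), Rpl12 (0.34), Rpl22 (0.34), Rpl30 (0.02), Rpl5 (-0.28), Rps12 (0.34), Rps27rt (0.10) and Rps23rg1 (-0.45).

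One library carried much of the size of the heart result. Of the 87 genes tested, 85 were highest among the KO hearts in heart KO 1. Without it 72 genes were higher and 1 was lower, the median log2 fold change fell to 0.47, and 3 genes were higher under the study's rule. Without heart KO 3, 81 genes were higher, the median was 0.77 and 25 genes were higher under that rule. The calls among all genes moved too. With every library 2380 of 13816 were higher and 2238 lower, with 368 higher under that rule. Without heart KO 1, 1837 of 14054 were higher and 1753 lower, with 252 higher under the rule. Without heart KO 3, 2911 of 14098 were higher and 2775 lower, with 560 higher under it.

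Transcript length moved with the heart result. The ribosomal protein genes were short, with a median transcript length of 762 bases and 70 of 93 under 1000 bases, against a median of 2879 bases for all genes tested in heart tissue. Among genes that were no members, the median log2 fold change in heart tissue was 0.74 under 500 bases, 0.55 from 500 to 1000 bases, 0.29 from 1000 to 2000 bases, -0.00 from 2000 to 4000 bases and -0.31 beyond. Members under 500 bases had a median of 0.88, those from 500 to 1000 bases 0.68 and those from 1000 to 2000 bases 0.53. In all, 68 of the 87 members lay above the median of the other genes in their length class. With an offset that removes the trend of counts with length and GC content in each library, 21 members were higher and 4 lower in heart tissue, with a median of 0.12, where 13.5% of all genes were higher and 11.2% lower, with a median of 0.02. Of the 79 calls 55 were lost, 22 were kept and 2 turned: Rps28 (-0.29, adjusted p = 0.024) and Rps29 (-0.33, adjusted p = 0.0124), both 40S genes, were called lower with the offset. Under the study's rule 3 were higher and 1 lower. Of the genes described above, Rpl11 (1.22, adjusted p = 3.21e-06), Rps2 (0.63, adjusted p = 0.0264), Rpsa (0.39, adjusted p = 0.00764) and Rplp0 (0.28, adjusted p = 0.0278) kept the call. Rps14 (0.36, adjusted p = 0.132), Rps21 (0.20, adjusted p = 0.218), Rps19 (0.14, adjusted p = 0.123), Rplp2 (0.07, adjusted p = 0.566) and Rpl4 (0.08, adjusted p = 0.425) lost it, as did Rps6 and Rplp1, whose values were at or just below 0. In ECs the trend ran the other way: other genes had medians of -0.62 under 500 bases, -0.25 from 500 to 1000 bases and -0.07 from 1000 to 2000 bases. There 73 of 89 members lay above the median of their class, and the same offset gave 34 members higher and 3 lower with a median of 0.44, where 8.30% of all genes were higher and 11.1% lower, with a median of -0.07.

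**Figure D2:**
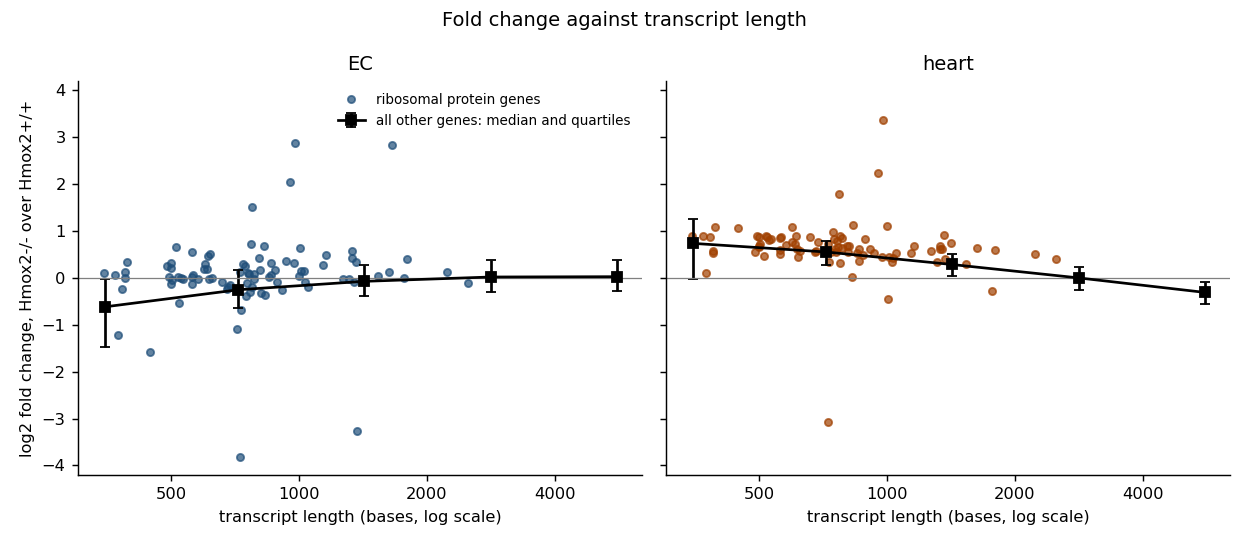
Log2 fold change (Hmox2-/- over Hmox2+/+) against mean transcript length in bases (log axis) for ECs (left) and heart tissue (right); coloured points are ribosomal protein genes, black squares the median and bars the quartiles of all other genes in 5 length classes. In heart tissue the other genes of the shortest classes have medians of 0.74 and 0.55, near most members, and in ECs -0.62 and -0.25, below most members.

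Markers of other cells moved in the same hearts. All 5 erythroid markers were higher in heart KO, with a median log2 fold change of 1.98 and a summed level of 341 to 779 TPM in heart WT and 2416 to 3506 TPM in heart KO. Macrophage markers summed to 39.1 to 59.4 TPM in heart WT and 83.9 to 144 TPM in heart KO, and 3 of 6 were higher. Fibroblast markers summed to 195 to 239 TPM in heart WT and 283 to 348 TPM in heart KO. In the test on counts 2 of these 6 were lower and none was higher. Of the 8 endothelial markers 2 were higher and 1 lower. The summed TPM was not corrected for the lower share of mitochondrially encoded genes in heart KO. Of the 8 cardiomyocyte markers 3 were higher and 1 lower, and of the 6 smooth muscle markers 3 were higher and 1 lower. None of the 5 erythroid or 6 macrophage markers was at 0 in heart WT. Their part in the ribosomal protein result was not tested.

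Without the offset for length and GC content, the same genes showed no common direction in ECs. Of 89 genes tested, 9 were higher and 6 lower, against 10% and 8.06% of all 15301 genes tested (18.1% in all), and the median log2 fold change was 0.06 (all genes -0.02). By subunit, 2 genes of the 40S subunit were higher and 1 lower (median 0.12), and 5 of the 60S subunit were higher and 2 lower (median 0.05). The stalk genes Rplp0 (-0.08, adjusted p = 0.744), Rplp1 (0.21, adjusted p = 0.383) and Rplp2 (-0.02, adjusted p = 0.933) were not called. In 20 genes all KO libraries lay above all WT libraries and in 12 below, where 22.0% and 18.7% of all genes did. Under the study's rule 4 were higher and 4 lower, where 5.39% and 3.89% of all genes were. With upper-quartile scaling in place of TMM, 12 were higher and 5 lower, where 1864 and 1011 of all 15301 genes were. With the offset for length and GC content 34 were higher and 3 lower, where 8.30% and 11.1% of all genes were.

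Of the 15 calls in ECs, 9 were lost when some single library was left out. The genes called higher were Rps3a1, Rpl27rt, Rps7, Rpl10, Rpl11, Rpl30, Rpl34, Rpl15 and Rpl22l1, and those called lower were Rpl29, Rpl3l, Rpl35rt, Rps27rt, Rps12 and Rpl41. Rpl11 was 204, 211 and 229.96 CPM in EC WT and 390.2, 363 and 308 CPM in EC KO (0.72 ± 0.14 SE, adjusted p = 0.017), without overlap. Rpl30, a 60S protein, was 58.8, 65.8 and 72.5 CPM and 121, 105 and 90.6 CPM (0.69 ± 0.14 SE, adjusted p = 0.02). Rpl34 and Rpl15 of the same subunit rose by 0.65 and 0.58 (adjusted p = 0.0257 and 0.0293), and none of the 3 had overlapping groups. Rps12 of the 40S subunit was 45.9, 39.2 and 46.9 CPM and 31.4, 25.2 and 25.1 CPM (-0.69 ± 0.14 SE, adjusted p = 0.0168). With their copies summed, Rpl30 (0.26 ± 0.14 SE, adjusted p = 0.236), Rpl34 (0.19 ± 0.15 SE, adjusted p = 0.398), Rpl15 (0.33 ± 0.14 SE, adjusted p = 0.127) and Rps12 (0.12 ± 0.17 SE, adjusted p = 0.656) were not called. Rpl41, the shortest ribosomal protein, was 599.7, 621 and 603 CPM and 473, 415 and 364 CPM (-0.54 ± 0.15 SE, adjusted p = 0.0478), but its value was 0.19 with the offset for length and GC content. Leaving out EC WT 1 or EC KO 2 left 6 calls, leaving out EC WT 2, EC KO 1 or EC KO 3 left 9, and leaving out EC WT 3 left 13. The calls among all genes moved too, from 1532 higher and 1234 lower with every library. Without EC WT 1, 2 or 3 they were 794 and 585, 920 and 745, and 1875 and 1721. Without EC KO 1, 2 or 3 they were 876 and 707, 631 and 411, and 375 and 263. Rps3a1, Rps7, Rpl10, Rpl29, Rpl3l and Rpl35rt had the call whichever library was left out, and Rpl41 lost it in each of the 6 fits. Other cells' markers moved in ECs too: 3 of 6 fibroblast, 3 of 6 macrophage and 3 of 8 endothelial markers were higher, and 2 of 6 smooth muscle, 1 of 8 endothelial and all 8 cardiomyocyte markers were lower. Summed levels were at most 2035 TPM in EC WT and 2355 to 3197 TPM in EC KO for fibroblast markers, 134 to 258 and 237 to 387 TPM for macrophage markers, and 1962 to 3154 and 593 to 2257 TPM for smooth muscle markers, none at 0. Endothelial markers summed to 833 to 1605 TPM in EC WT and 1798 to 2018 TPM in EC KO, without overlap. The part of all these markers in the EC values was not tested.

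The genes were then parted by their near-identical copies. A gene was taken to share sequence when at least 20% of the 31-base words of its transcripts occurred in other genes, since Kallisto assigns reads by such words. Of the changes past the study's rule, 1 of 8 in ECs (Rpl3l) and 4 of 9 in heart tissue were in genes below this share. When the share was taken over the most abundant transcript alone, only 1 such change in each tissue was below it. This was Rpl3l in ECs and Rps19bp1, which encodes no ribosomal protein, in heart tissue. In all, 49 members shared sequence, 36 did not and 8 were copies themselves. Over the most abundant transcript alone 71 shared sequence and 14 did not, and with a limit of 50% over all transcripts 7 did and 78 did not. Outside the members, 745 genes, 720 of them pseudogenes, shared at least 20% of the words of the smaller gene with a member. The transcript sequences compared are those of GENCODE M39, and transcripts with the same length there as in the deposited values held 27.9% of the members' counts, so the shares are approximate.

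For 3 parents with the largest changes, a stretch of coding sequence is shown beside that of a copy whose count moved the other way. Capitals mark the bases that differ. Over the whole coding sequence Rps3a1 and Rps3a2 differ in 4 of 792 bases, Rps7 and Rps7-ps3 in 3 of 582, and Rpl29 and Gm13841 in 3 of 480. The windows are 60 bases of GRCm39: chr3:86045795-86045854 (minus strand, exon 5) with chr14:88360577-88360636 (minus strand), chr12:28685594-28685653 (minus strand, exon 2) with chrX:151693057-151693116 (minus strand), and chr9:106307507-106307566 (plus strand, exon 3) with chr5:115940122-115940181 (minus strand). Each copy is annotated as a processed pseudogene, that of Rps7 as a transcribed one.
Rps3a1: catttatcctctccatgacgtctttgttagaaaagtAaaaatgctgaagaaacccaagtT
Rps3a2: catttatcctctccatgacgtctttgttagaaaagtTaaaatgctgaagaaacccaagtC
Rps7: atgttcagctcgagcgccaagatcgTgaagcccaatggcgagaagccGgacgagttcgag
Rps7-ps3: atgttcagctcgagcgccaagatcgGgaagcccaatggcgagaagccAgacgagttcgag
Rpl29: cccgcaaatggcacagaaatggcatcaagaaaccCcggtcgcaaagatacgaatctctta
Gm13841: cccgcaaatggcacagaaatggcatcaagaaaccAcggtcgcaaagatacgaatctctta

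Rps3a1, a 40S protein at chr3:86045244-86050009 (minus strand), was 96.9, 88.7 and 100.3 CPM in EC WT and 801, 674 and 623 CPM in EC KO, and 35.7, 31.6, 34.8 and 31.2 CPM in heart WT and 396, 340.4 and 298 CPM in heart KO. The groups were widely separated, with log2 fold changes of 2.88 ± 0.16 (SE, adjusted p = 1.66e-04) in ECs and 3.38 ± 0.12 (SE, adjusted p = 1.20e-08) in heart tissue. Its copy Rps3a2 on chromosome 14 went the other way, from 373, 358 and 439.5 CPM in EC WT and 133, 144, 133 and 121 CPM in heart WT to at most 0.153 CPM in any KO library. The copy Rps3a3 on chromosome 13 fell from 78.3, 69.1 and 86.3 CPM and 23.2, 24.3, 24.4 and 25.6 CPM to at most 0.302 CPM. In all 7 WT libraries Rps3a1 held 15.8% to 18.6% of the counts of its family, and in all 6 KO libraries 99.9% or more. With the parent and its 6 copies summed, the family was 549, 516 and 627 CPM in EC WT and 801, 674 and 623 CPM in EC KO (0.31 ± 0.17 SE, adjusted p = 0.228). In heart tissue the sum was 191, 200.1, 192 and 178 CPM and 396, 341 and 299 CPM (0.86 ± 0.11 SE, adjusted p = 3.30e-04), within the range of the other 40S genes.

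Rps7, another 40S protein at chr12:28677933-28686292 (minus strand), showed the same kind of shift. It was 97.9, 83.4 and 105 CPM in EC WT and 455, 382 and 336 CPM in EC KO (2.04 ± 0.17 SE, adjusted p = 0.00126), and 37.2, 46.1, 46.2 and 57.6 CPM in heart WT and 285, 213 and 166 CPM in heart KO (2.23 ± 0.18 SE, adjusted p = 1.43e-05). Its copy Rps7-ps3 on the X chromosome was 201, 188 and 209 CPM in EC WT and at 0 in all EC KO libraries. In heart tissue the copy was 85.4, 80.1, 84.5 and 72.4 CPM in WT and 44.6, 11.4 and 10.9 CPM in KO, so that heart KO 1 held an intermediate level. The summed family was higher by 0.40 ± 0.16 (SE, adjusted p = 0.112) in ECs and by 0.93 ± 0.17 (SE, adjusted p = 0.00248) in heart tissue on the log2 scale, of which the first did not pass the test.

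Rpl29, a 60S protein at chr9:106306586-106311297 (plus strand) that mice can live without, went down while its copies went up. It was 237, 268 and 267 CPM in EC WT and 18.7, 20.6 and 15.4 CPM in EC KO (-3.82 ± 0.15 SE, adjusted p = 2.76e-05), and 91.8, 104, 94.8 and 94.1 CPM in heart WT and 12.9, 12.1 and 9.45 CPM in heart KO (-3.07 ± 0.13 SE, adjusted p = 3.69e-08). The pseudogenes Gm13841 on chromosome 5 and Gm8210 on chromosome 1 had equal values in every library, at most 0.0334 CPM in WT and 55.2, 53 and 44.2 CPM in EC KO and 35.7, 31.1 and 25.4 CPM in heart KO. Rpl29 held 99.2% to 99.8% of its family's counts in WT libraries and 14.4% to 16.3% in KO libraries. Summed, the family, which also holds Rpl27rt, was lower in ECs (-1.09 ± 0.13 SE, adjusted p = 0.00427) and in heart tissue (-0.40 ± 0.12 SE, adjusted p = 0.0209). In TPM, which corrects for the shorter copies and is not TMM-scaled, the summed family was 155, 195, 147 and 152 in heart WT and 277, 254 and 225 in heart KO, that is, higher in every KO heart. TPM also counts the mitochondrially encoded genes, which held 37.3% to 43.9% of estimated counts in heart WT and 22.3% to 27.0% in heart KO. The direction of this family in heart tissue therefore differed between the scales. What part the mitochondrially encoded genes had in this was not tested.

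**Figure D3:**
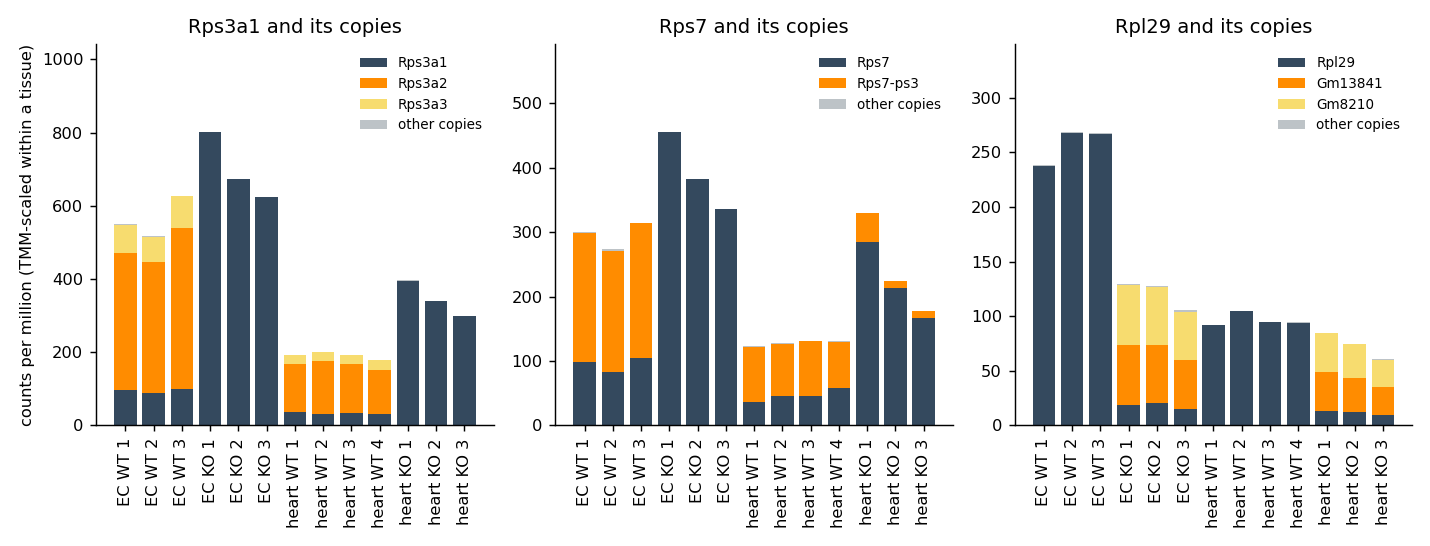
CPM (TMM-scaled within a tissue) of Rps3a1, Rps7 and Rpl29 with their copies in each of the 13 libraries, stacked so that the bar height is the family total. In WT libraries most of the Rps3a1 and Rps7 families is counted for a copy and in KO libraries for the parent, while the Rpl29 family shows the reverse.

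The same pattern was counted over all copies. Of 34 copies with at least 5 CPM in every EC library of a genotype, 7 were under 0.5 CPM in all EC KO libraries and 2 in all EC WT libraries. In heart tissue, 3 of 32 copies were under 0.5 CPM in all KO libraries and 2 in all WT libraries. Rps3a2, Rps3a3, Gm13841 and Gm8210 did so in both tissues. Gm13841 and Gm8210, with equal values in every library, are the 2 copies under 0.5 CPM in WT in each tissue. The share of all genes with this pattern was not counted. Some copies held more counts than their parent in both genotypes. Rps12-ps3 was 80.3, 81, 72.3 and 70.1 CPM in heart WT and Rps12 6.84, 5.75, 5.14 and 7.08 CPM, and Gm70833, which shares its sequence with Rpl5, was 208, 229.7, 219.6 and 223 CPM in heart WT and 358, 270.2 and 240.2 CPM in heart KO. One copy stood apart in a single library: Rpl3-ps1 was 217, 2.31 and 1.3 CPM in EC WT, and Rpl3 held 60.2, 99.6 and 99.8% of its family there.

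The counts of calls were then taken apart by shared sequence. In heart tissue 44 of 49 genes that share sequence were higher and 1 was lower (median 0.67), and 32 of the 35 tested genes that do not were higher (median 0.62). Over the most abundant transcript alone, 64 of 71 were higher and 1 was lower, and 12 of the 13 tested genes that do not share were higher (median 0.60). In ECs 4 of 49 were higher and 2 lower (median 0.02), and 4 of 35 were higher and 2 lower (median 0.13). Among all genes tested in ECs 10% were higher and 8.06% lower, and in heart tissue 17.2% and 16.2%. Of the protein-coding copies themselves, 2 of 3 tested were higher in heart tissue (median 0.65), and 1 of 5 was higher and 2 were lower in ECs (median -1.08). With every gene summed with its copies into 1 of 83 families tested, the EC calls fell to 2 higher and 3 lower. Among all 15246 genes and families of that fit 1519 were higher and 1207 lower. Rpl11 (0.70 ± 0.14 SE, adjusted p = 0.0183) and Rpl22l1 (0.55 ± 0.13 SE, adjusted p = 0.0278) were higher. Rpl3l (-3.27 ± 0.54 SE, adjusted p = 0.00984), Rpl29 (-1.09 ± 0.13 SE, adjusted p = 0.00427) and Rpl41 (-0.54 ± 0.15 SE, adjusted p = 0.0477) were lower. The heart result was kept, with 80 of 83 families higher, 1 lower and a median of 0.65. Among all 13771 genes and families of that fit 2381 were higher and 2246 lower. The 2 families without a call in heart tissue were Rpl22 (0.34 ± 0.14 SE, adjusted p = 0.0756) and Rpl30 (0.31 ± 0.12 SE, adjusted p = 0.0604). Rpl11 (1.79 ± 0.17 SE, adjusted p = 4.08e-05) had the highest family value in heart tissue. It was followed by Rps19bp1, which encodes no ribosomal protein, Rps21 and Rps14, all past a log2 fold change of 1.

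**Figure D4:**
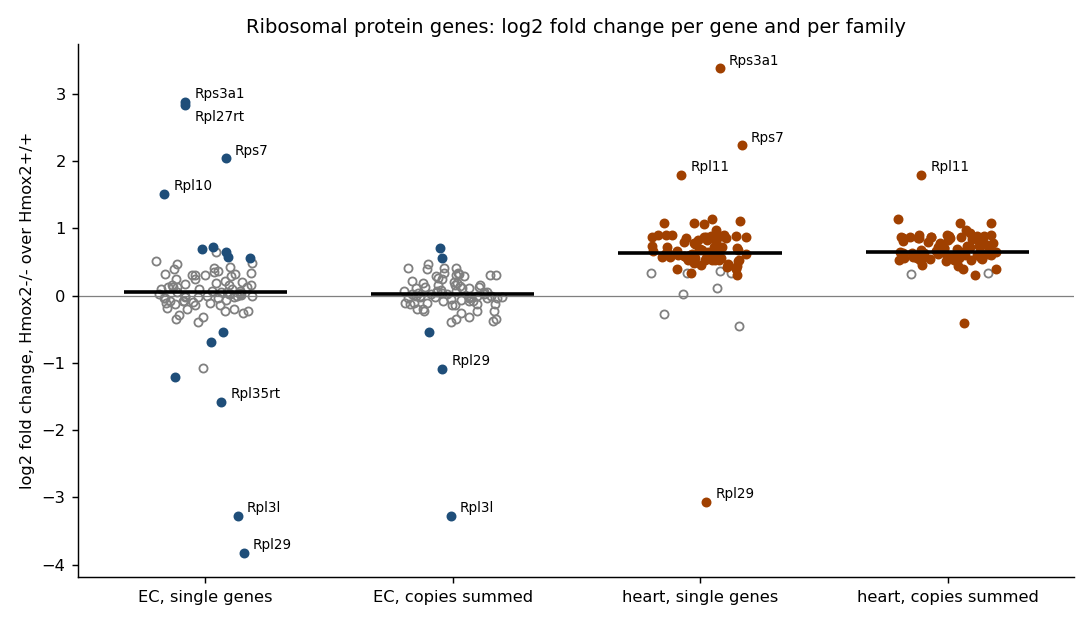
Log2 fold change (Hmox2-/- over Hmox2+/+) of the ribosomal protein genes singly and summed with their copies, in ECs (blue) and heart tissue (brown); filled points passed an adjusted p of 0.05, open points did not, and bars are medians. Summing removes the extreme values of Rps3a1 and Rps7, leaves the EC median near 0 and leaves the heart median at 0.65.

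Rpl10, a late-joining 60S protein with a protein-coding copy, Rpl10-ps3, was 173, 137 and 180.2 CPM in EC WT and 517, 478 and 405 CPM in EC KO (1.51 ± 0.17 SE, adjusted p = 0.00314), without overlap. In heart tissue it was 65.3, 56.3, 54.8 and 57.2 CPM and 76.6, 67.2 and 75.2 CPM (0.33 ± 0.10 SE, adjusted p = 0.0232). Summed with its copies it changed by 0.41 ± 0.16 (SE, adjusted p = 0.12) in ECs and 0.54 ± 0.11 (SE, adjusted p = 0.00416) in heart tissue. Among the single-exon coding copies, Rpl35rt moved in opposite directions: 36.2, 32 and 28.5 CPM in EC WT and 9.46 to 12.8 CPM in EC KO (-1.58 ± 0.16 SE, adjusted p = 0.0024), but 6.84, 8.48, 7.39 and 7.5 CPM in heart WT and 21, 13.4 and 13.6 CPM in heart KO (1.07 ± 0.17 SE, adjusted p = 0.00143). It shares 90.4% of its words with other genes, and Rpl35 held 84.1% to 95.2% of the summed family. Rpl27rt was near 0 in EC WT (0.0369, 0.134 and 0.124 CPM) and low in EC KO (0.567, 0.575 and 1.07 CPM).

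The difference between the tissues was itself tested, as the genotype effect in heart tissue minus that in ECs. The labels do not say whether hearts and ECs came from the same mice, and the fit took all libraries as separate. This also holds for the comparison of the wild-type tissues below. It was above 0 for 47 of 89 genes and below 0 for 3, where 16.2% and 12.7% of all 15938 genes were (28.8% in all), with a median of 0.64 (all genes 0.03). Under an added absolute value of 1 the counts were 12 and 2, where 8.08% and 7.33% of all genes were. Rpl19, a 60S gene that served as the qPCR reference of the study, was 604, 590.3 and 613 CPM in EC WT and 495, 459.9 and 419 CPM in EC KO, each KO library below each WT library without passing the test (-0.40 ± 0.14 SE, adjusted p = 0.0906). In heart tissue it was 187, 194, 191 and 188 CPM and 442, 324 and 245 CPM (0.83 ± 0.16 SE, adjusted p = 0.0036), and the difference between the tissues was 1.26 ± 0.23 (SE, adjusted p = 0.00173). With copies summed, 57 of 83 families were above 0 and the median was 0.71, where 2579 of all 15876 genes and families were above 0. With the offset for length and GC content the balance turned, with 6 genes above 0 and 17 below and a median of -0.15, where 16.7% of all genes were above and 8.46% below, with a median of 0.10. Of the 50 calls 39 were lost and 3 turned. Among the lost calls was that of Rpl11 (0.22, adjusted p = 0.365), while Rpl19 kept its call (0.51, adjusted p = 0.0418). Other genes had interaction medians of 1.26 under 500 bases and 0.80 from 500 to 1000 bases, and 35 of the 89 members lay above the median of their length class. Leaving out EC KO 3 left 33 calls, and without heart KO 1 5 genes were above and 2 below 0 with the added limit of 1.

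Rpl3 and Rpl3l are a pair of paralogs of which Rpl3l is used in striated muscle. Rpl3l (chr17:24946751-24955119, plus strand) shares no 31-base word with another gene. Its level was 160.4, 169, 133 and 149 TPM in heart WT and 228, 268 and 252 TPM in heart KO, and its log2 fold change on CPM was 0.40 ± 0.09 (SE, adjusted p = 0.00826). Rpl3 (chr15:79961825-79976069, minus strand) was 39.5, 51, 62.8 and 60.6 TPM in heart WT and 156, 118 and 104 TPM in heart KO (0.90 ± 0.21 SE, adjusted p = 0.0083 on CPM). Both rose without overlap, and Rpl3l made up 68.0% to 80.3% of the TPM of the pair in heart WT and 59.4% to 70.7% in heart KO, which overlap. With the copies of Rpl3 summed, its change in heart tissue was 0.54 ± 0.16 (SE, adjusted p = 0.0196). In ECs Rpl3l was 1.51, 3.12 and 1.79 TPM in WT and 0.51, 0.199 and 0.101 TPM in KO (-3.27 ± 0.54 SE, adjusted p = 0.00967). All 8 cardiomyocyte markers were lower in EC KO as well, with summed levels of 98.8 to 658 TPM in EC WT and 7.41 to 9.61 TPM in EC KO, and none was at 0. Their part in the EC value of Rpl3l was not tested.

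**Figure D5:**
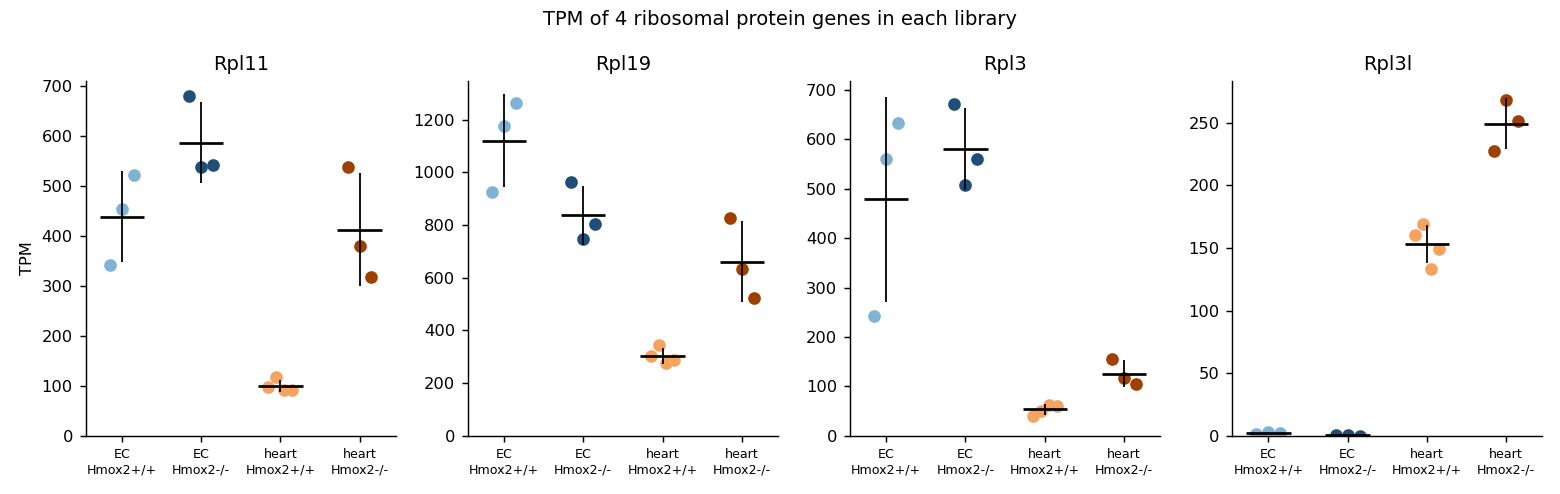
TPM of Rpl11, Rpl19, Rpl3 and Rpl3l in each library, with libraries as points, group means as horizontal bars and the SD as vertical bars. TPM was not corrected for the lower share of mitochondrially encoded genes in heart KO. Rpl11, Rpl19 and Rpl3 are lower in heart WT than in EC WT and higher in heart KO than in heart WT, where Rpl11 (319 to 538 TPM) and Rpl19 (522 to 829 TPM) reach the levels of some EC libraries, and Rpl3l is at 133 TPM or more in every heart and at 3.12 TPM or less in ECs.

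The other paralogs tested were also higher in heart KO. With the offset for length and GC content Rpl36al (0.20, adjusted p = 0.0482) kept the call, and Rpl3l (0.08, adjusted p = 0.534), Rpl22l1 (0.16, adjusted p = 0.359), Rps27l (0.18, adjusted p = 0.253) and Rpl7l1 (0.29, adjusted p = 0.0546) lost it. Rpl22l1, which substitutes for Rpl22, rose by 0.59 (adjusted p = 0.00383) and also in ECs, from 36.8, 39.6 and 46.1 CPM to 64.8, 60.8 and 54 CPM (0.55 ± 0.13 SE, adjusted p = 0.0278), while Rpl22 was not called in either tissue. Rps27l rose by 0.72 and Rps27 by 0.90 (adjusted p = 0.00503 and 0.00984). Rpl36al rose by 0.84 and Rpl36a by 0.56 (adjusted p = 0.0012 and 0.0107). Rpl7l1 rose by 0.39 and Rpl7 by 0.52 (adjusted p = 0.028 and 0.00442). Rpl39 rose by 0.89 (adjusted p = 0.00368), with its paralog Rpl39l below the filter. Rpl37rt, the copy of Rpl37, is annotated as a pseudogene and as a lncRNA and is no member. Rpl37 rose by 0.55 (adjusted p = 0.0197), with overlapping groups. Rps4x rose by 0.45 (adjusted p = 0.0169), and its paralog Rps4l was at 0 in every library.

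Between the wild-type tissues the genes were lower in heart tissue. Of 87 genes tested, 81 were lower in heart WT than in EC WT and 1, Rpl3l (7.21), was higher, where 35.4% and 32.5% of all 14777 genes were (67.9% in all), with a median log2 fold change of -0.94 (all genes -0.06). Under the study's rule 35 were lower and 1 higher, where 22.6% and 17.0% of all genes were, and 81 were lower and 2 higher without overlap, where 35.0% and 32.9% were. Rpl3 had the lowest value (-2.17 ± 0.26 SE, adjusted p = 4.37e-05). With the offset for length and GC content 60 genes were lower and 4 higher, with a median of -0.43, where 35.6% of all genes were lower and 31.9% higher. On the TPM scale, which is per length, the families of the 77 subunit and stalk genes had median levels of 787 TPM in EC WT, 751 in EC KO, 228 in heart WT and 448 in heart KO. These levels were not corrected for the share of mitochondrially encoded genes, which differed between the heart groups. In EC WT the families of Rps27, Rpl41 and Rps29 were highest, with means of 2130, 2108 and 2104 TPM and overlapping libraries, and that of Rpl39 was lowest at 322 TPM. In heart WT Rps2 was highest at 607 TPM and Rpl3 lowest at 72.7 TPM. As a description, the order of the 77 families was much alike in the genotypes (Spearman's rho 0.92 in ECs and 0.94 in heart tissue). The points of a group share libraries, and those of a gene share length.

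The starts of the transcripts were read from RefSeq's sequences around each annotated start (GRCm38.p6), which held 67 of the 93 genes. A window from 5 bases before to 25 bases after the start held a C followed by at least 5 bases C or T, on the transcribed strand, in 35 of the 67 members (52.2%) and in 6178 of 27025 genes with such a window (22.9%). The starts of Rps6, Rpl11 and Rps2 are shown because they are the S6 kinase target, the gene with the highest family value in heart tissue and a strongly expressed 40S gene. The run is in capitals. Rps6 is at chr4:86857343-86857372 (minus strand), Rpl11 at chr4:136053369-136053398 (minus strand) and Rps2 at chr17:24720058-24720087 (plus strand).
Rps6: cgggCCTCTTTTTCgtgacgcctcccaggc
Rpl11: aggccacggggccggaagtCTCCCTCTCTC
Rps2: gatctcgcgCTTCTTggagcactataaatt

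In the 250 bases before the start, on either strand, the motif CCGGAAG bound by ETS factors occurred in 28.4% of members and 7.83% of all genes, GGGCGG bound by Sp1 in 50.7% and 35.4%, and AAGATGG bound by YY1 in 7.46% and 5.18%. These are matches of letters, and binding was not measured here.

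Other genes of translation were counted by list in heart tissue, to be read beside the 17.2% of all genes that were higher and the 16.2% that were lower. These lists were not tested as sets. Rack1, a scaffold on the 40S subunit, and Fau, which encodes a ribosomal protein fused to a ubiquitin-like one, fall outside the symbol rule and rose by 0.84 and 0.62 (adjusted p = 0.00302 and 0.00365). Among 21 other TOP mRNAs, which include both, 12 were higher and 1 was lower (median 0.44). Of 12 genes listed under elongation 7 were higher and 1 lower (median 0.45). The higher ones included Eef1a1 (0.79), which brings aminoacyl-tRNA to the ribosome, Eif5a (0.68) and Eef1g (0.56). Of 39 initiation factors 11 were higher and 2 lower (median 0.19), including the eIF3 subunits Eif3h (0.77), Eif3i (0.76) and Eif3d (0.61). Of 61 ribosome biogenesis genes 15 were higher and 2 lower (median 0.17). Among them Nop10 and Mrto4 rose by 0.70 and 0.64, and nucleolin (Ncl) fell by 0.46 on the log2 scale.

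In ECs these lists gave few calls, to be read beside the 10% of all genes that were higher and the 8.06% that were lower. Of 39 initiation factors 0 were higher and 1 lower, and of 12 genes listed under elongation 2 and 1. Of 21 other TOP mRNAs 1 was higher and 1 lower, and of 61 biogenesis genes 0 and 0. Eif4ebp1, the repressor of cap-dependent initiation, was lower (-0.99, adjusted p = 0.029). Of the genes listed under elongation Eif5a2 (0.88) and Eef1e1 (0.59) were higher. Eef1a2, the muscle form of an elongation factor, was lower (-6.27), as the cardiomyocyte markers were. Of the TOP mRNAs Hnrnpa1 was higher (0.63) and Pabpc1, the poly(A)-binding protein, lower (-0.61). Among the biogenesis genes Nop58, Tsr1 and Nip7 had the smallest p, with values of 0.36, 0.36 and 0.30 and adjusted p = 0.0621, 0.0855 and 0.0862. Rack1 and Fau had 0.19 and 0.32, with adjusted p = 0.393 and 0.147.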

How the data were processed

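RNA of 13 libraries (EC WT 3, EC KO 3, heart WT 4, heart KO 3) was sequenced from oligo-dT-selected, strand-kept libraries. The deposited estimated counts and the deposited TPM values were made by the authors with Kallisto (version 0.44.0 per the submitters' processing notes), 1 library at a time and without normalization between libraries. GENCODE M32 is given as the index in the study's methods, while the processing notes list another mouse build and a human build. This conflict was not settled, and the index decides how reads are split between parents and copies. Of 118489 transcripts, 115140 (97.2%) were matched by identifier without version to GENCODE M39, and unmatched ones held 0.755% to 1.01% of the counts. Counts of a gene's transcripts were added up and then rounded. Genes kept by filterByExpr (minimum count 10) were TMM-normalized and tested with edgeR's quasi-likelihood F-test (edgeR 4.0.16, R 4.3.3), within each tissue, over all 4 groups for the interaction, and in WT libraries for the tissues. p-values were Benjamini-Hochberg adjusted over all genes tested, and a call had an adjusted p of at most 0.05. Library sizes limit precision mainly in heart WT 1.

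Genes sharing at least 20% of 31-base words (the smaller word set) were summed into families for a second fit. Alternatives were DESeq2 (1.42.0), upper-quartile scaling, no filter, protein-coding genes alone, counts from length-scaled TPM, the replicate number as a block, 1 fit of all libraries, leaving out mitochondrially encoded genes or the members from scaling, an offset for length and GC content, a 50% share of words, and leaving out each library. Families without neighbouring coding genes, and word shares of the most abundant transcript, were added after seeing the data. The summed values in the text are those of the former. The genes named were the members with the largest changes per tissue and direction, all past a log2 fold change of 1, paralog pairs, genes of known role, Rpl19, Hmox2, and the 3 genes with the smallest p of each other translation list. A gene of these lists is not reported here. The members and lists were chosen with earlier results of these data known. The fits were tested on simulated counts. The mice of a group are separate samples in the labels, and p-values measure the spread between them.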

Additional observations from a re-analysis of the deposited data

Results flagged for a closer look

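The genotype effect differed between heart tissue and ECs for 50 of 89 members by the interaction test, where 28.8% of all genes were called. Among the genes examined singly, the difference (heart minus EC, log2) was 0.54 for Rps3a1, 0.79 for Rpl29, 1.12 for Rpl11, 3.70 for Rpl3l, 1.26 for Rpl19, -1.15 for Rpl10 and 2.69 for Rpl35rt. For Rps3a1, Rpl29, Rpl10 and Rpl35rt, which have near-identical copies, the values were also taken over families: with copies summed the difference was 0.59 ± 0.19 (SE, adjusted p = 0.0351) for Rps3a1, 0.73 ± 0.18 (SE, adjusted p = 0.00846) for Rpl29, 0.17 ± 0.19 (SE, adjusted p = 0.515) for Rpl10 and 1.12 ± 0.24 (SE, adjusted p = 0.00381) for Rpl35 with Rpl35rt. For Rpl3l the cardiomyocyte markers fell in EC KO as well, from 98.8 to 658 TPM to 7.41 to 9.61 TPM in sum, and the part of this in the difference was not tested. With the offset for length and GC content the call was lost for Rps3a1 (0.08, adjusted p = 0.754), Rpl29 (-0.16, adjusted p = 0.442) and Rpl11 (0.22, adjusted p = 0.365). It was kept for Rpl3l (3.19, adjusted p = 1.06e-04), Rpl10 (-1.78, adjusted p = 6.98e-05), Rpl35rt (1.21, adjusted p = 0.00148) and Rpl19 (0.51, adjusted p = 0.0418). Rpl11 and Rpl19 lie among short genes, and other genes of 500 to 1000 bases had a median difference of 0.80.

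In heart WT the level of Rps27rt was 2.97, 3.5, 2.93 and 6.62 CPM, so that heart WT 4 stood apart, with a gap of 0.847 of the range, past Dixon's 95% value for 4 samples. Chance gives such a gap in about 1 of 20 groups, and 36 values were checked.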

How the results depend on the processing

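In ECs 15 calls (9 higher, 6 lower) became 37 with the offset for length and GC content (median 0.44), 5 with copies summed, with or without neighbouring coding genes (2 higher, 3 lower), and 8 under the study's rule. Leaving out 1 library gave 6 to 13 calls and medians of -0.03 to 0.16. Without EC KO 1 there were 9 calls, 4 higher and 5 lower, where 876 and 707 of all 15767 genes were. In heart tissue 79 calls became 25 with the offset (median 0.12) and 9 under the study's rule, and leaving out 1 library gave 69 to 82 calls and medians of 0.47 to 0.77. The 50 interaction calls became 23 with the offset (6 higher, 17 lower) and 14 with an absolute value of 1, and 33 to 63 with 1 library left out. The 82 calls between WT tissues became 36 under the study's rule and 80 to 83 with 1 library left out. The difference in the share of TPM (KO minus WT) without mitochondrially encoded genes was 1.18 percentage points in ECs and 1.20 in heart tissue, and as a share of all estimated counts it was 0.842 in heart tissue. Over all TPM, with 1 library left out, it was -0.59 to 0.49 in ECs and 1.37 to 2.03 in heart tissue. With the offset, and counting values called in either fit, 6 members changed sign in ECs, 18 in heart tissue, 35 in the interaction and 4 between WT tissues. Among the genes named by rule these were Rpl36al (0.48) and Rpl41 (0.19) in ECs, Rpl10 (-0.14), Rpl36a (-0.11), Rplp1 (-0.0598), Rps27 (-0.0528) and Rps6 (-0.00364) in heart tissue, and Rpl29 (-0.16) in the interaction. Of the values of single genes, 1293 kept their side of the threshold and direction, 106 lost a call and 15 gained one. The cause of these shifts was not tested.

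The replicate number as a block gave 8 higher and 5 lower in ECs, 67 and 1 in heart tissue and 33 and 1 for the interaction. Deviations of same-numbered libraries correlated at 0.22, 0.22 and 0.05 in ECs and -0.12, 0.30 and 0.15 in heart tissue, so the numbers were not taken to pair the mice. Heart WT 1, with 7268626 counts, is the least precise library.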
